A study of Mus musculus with 14 samples.

Results

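The respiratory chain and ATP synthase genes of the nucleus were followed through reprogramming of mouse tail fibroblasts labelled AID-null or wildtype. The enzyme AID deaminates cytosines in DNA. Genes were taken by symbol: those starting with Ndufa, Ndufb, Ndufc, Ndufs, Ndufv, Sdh, Uqcr, Atp5 or Cox4 to Cox8, without pseudogenes and without Ndufa4l2. Of 91 such symbols 89 had at least 1 FPKM (a level per kilobase of transcript, scaled by library size) in at least 1 RNA library, out of 22026 genes in all. The 2 left out, Cox8b and Cox8c, were listed at 0 in all 4 RNA libraries. The 89 genes comprised 36 of complex I, 4 of complex II, 8 of complex III, 17 of complex IV and 15 of ATP synthase. The other 9 share the symbols but encode no subunit: the assembly factors Ndufaf1, Ndufaf2, Ndufaf3, Ndufaf4, Sdhaf1 and Sdhaf2, the factors Atp5s and Atp5sl, and Cox4nb, which is named for its neighbour Cox4i1.

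RNA was sequenced in 4 libraries: labelled AID-null cells after 3 weeks of reprogramming, labelled wildtype cells after 3 weeks, labelled AID-null fibroblasts and labelled wildtype fibroblasts. Reprogramming used ectopic Oct4, Sox2, Klf4 and cMyc. Fibroblasts received no reprogramming step that the labels name. Strain, age, sex and pooling of animals are not given in the sources used here. Each of these groups was 1 library, so no RNA difference below has a replicate check or a test. The same 4 groups, and 3 clones of each label picked at 2 weeks and measured after 3 weeks, also had reduced representation bisulfite sequencing (RRBS) libraries, which read cytosines in CpG-rich DNA.

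The respiratory chain passes electrons from NADH, through complex I, and from succinate, through complex II, to ubiquinone, complex III, cytochrome c and finally complex IV, which reduces oxygen. Complexes I, III and IV pump protons across the inner mitochondrial membrane, and ATP synthase uses the return flow to make ATP. Most subunits are encoded in the nucleus and a small hydrophobic core in mitochondrial DNA. Several complex IV subunits exist as a general isoform and a tissue-restricted one. Cells that become pluripotent are known to lean more on glycolysis than fibroblasts do.

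The genotype is written as a label throughout, since it ran with sex-linked genes. Xist was at 1.78 and 0.99 FPKM in the labelled AID-null 3-week and fibroblast libraries, against 149 and 456 in the labelled wildtype ones, and the Y-linked Eif2s3y was at 274 and 184 against 0 and 0. Genotype and sex cannot be told apart here. The 12 pluripotency markers summed to 9029.9 FPKM in labelled AID-null 3-week cells, 10384 in labelled wildtype 3-week cells, 27.9 in labelled AID-null fibroblasts and 14.5 in labelled wildtype fibroblasts, with 0 of 12 at least 2-fold higher and 2 lower in labelled AID-null than in labelled wildtype 3-week cells. The 12 fibroblast markers summed to 15866, 4336, 94385 and 86109 FPKM in the same libraries. All 12 fibroblast markers were thus present in both fibroblast libraries, and 9 of 12 were at least 2-fold higher in labelled AID-null than in labelled wildtype 3-week cells. The 12 macrophage markers summed to 1403.5, 374, 2781 and 1640.5 FPKM. Of them 10 of 12 were at least 2-fold higher in labelled AID-null than in labelled wildtype 3-week cells, where 7 were listed at 0 (Ptprc, Tyrobp, C1qa, C1qb, C1qc, Emr1 and Aif1). The 10 keratinocyte markers summed to 46.6, 214, 19.5 and 20.6 FPKM, with 6 of 9 measured ones at least 2-fold lower in labelled AID-null than in labelled wildtype 3-week cells. In these bulk libraries fewer cells of a type and less RNA per cell cannot be told apart, and the part of these cell types in the differences below was not tested.

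The chain belonged to the highly expressed genes of every library. Of the 89 genes 64 lay in the top 10% of all genes in labelled AID-null 3-week cells, 61 in labelled wildtype 3-week cells, 59 in labelled AID-null fibroblasts and 57 in labelled wildtype fibroblasts. The ATP synthase beta subunit Atp5b, which carries the catalytic sites, was the highest in mean level, at 4342, 4779, 2279 and 2306 FPKM in those libraries. Its partner in the catalytic head, the alpha subunit Atp5a1, was at 2358, 2242, 1347 and 1246 FPKM. In complex IV the highest mean levels belonged to Cox4i1, at 2240.4, 1846, 1612 and 1736 FPKM, and to the small membrane subunit Cox8a, at 1937, 1718, 1239.6 and 1309 FPKM. Uqcrq (649.9, 825, 753 and 871 FPKM) and Uqcr10 (926, 839.98, 584 and 587 FPKM) led complex III. In complex II the membrane anchors Sdhc (558, 459, 562 and 539 FPKM) and Sdhd (462, 611, 402 and 415 FPKM) stood first. Ndufa7 (1173, 899.6, 591 and 589 FPKM) and Ndufb9 (849, 735, 668 and 683 FPKM), both accessory subunits, led complex I.

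The subunits were far from equal in level within a complex. Among complex I genes with a value above 1 FPKM in all libraries the acyl carrier protein Ndufab1 was lowest in mean level, at 47.7, 46.6, 31.4 and 34.4 FPKM. Ndufs5, an accessory subunit that cells with complex I require, was listed at 0.05, 0.04, 13.1 and 0.08 FPKM, and its value is treated as uncertain. ATP synthase has 3 genes for the same mature c-ring subunit. Of their summed FPKM Atp5g3 held 89.7%, 93.4%, 90.6% and 90.9% in the order above, Atp5g2 held 7.89%, 3.78%, 5.84% and 5.45%, and Atp5g1 held 2.41%, 2.84%, 3.61% and 3.62%. The same gene thus supplied most of this transcript pool in all 4 libraries. Many nuclear genes of the chain have near-identical processed copies in the genome. In addition 29 of the 89 overlap another gene in the RefSeq table, so reads may be split between copies or neighbours.

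RefSeq promoter windows (build GRCm38.p6, 250 bases before to 50 after a start) were at hand for 75 of the 89 genes, as 81 windows. They were searched on both strands for letters bound by known regulators of mitochondrial genes, with no test. The palindrome bound by NRF1 stood in 7.41% of these windows and 0.971% of all 32851 windows. CCGGAAG, an ETS site that GABPA binds, stood in 23.5% and 8.86%, and AAGATGGC, bound by YY1, in 14.8% and 2.75%. The E-box CACGTG stood in 11.1% and 7.15%, and TCAAGGTCA, bound by oestrogen-related receptors, in 2.47% and 0.423%. A match describes the letters alone and is no evidence of binding. These windows were also richer in CpG, with a median of 20 CpGs against 7 over all windows.

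The YY1 letters sat at a common place, shown here because the alignment is easiest seen in the sequences. In 9 of 81 windows, 11.1%, AAGATGGC lay on the gene's strand with its first base 20 to 40 bases after the start, against 0.496% of all windows. That range was chosen after the matches had been seen. The 8 letters include ATG, the letters of a start codon. Where translation starts in these genes was not examined, so the common place cannot be read as that of a regulatory site. The excerpts below run 5′ to 3′ on the gene's strand with those 8 letters in capitals. Their positions in GRCm38.p6 are chr10:80249463-80249490 (+) for Ndufs7, chr7:3617385-3617412 (+) for Ndufa3, chr6:126849098-126849125 (-) for Ndufa9, chr19:44555393-44555414 (-) for Ndufb8, chr3:51408916-51408943 (-) for Ndufc1, chr13:114388045-114388069 (-) for Ndufs4, chr13:73328433-73328459 (-) for Ndufs6, chr5:145191501-145191528 (-) for Atp5j2 and chr7:25619430-25619457 (+) for Atp5sl.
Ndufs7: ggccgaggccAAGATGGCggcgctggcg
Ndufa3: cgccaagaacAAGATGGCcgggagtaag
Ndufa9: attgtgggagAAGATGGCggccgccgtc
Ndufb8: ggagaaggtgAAGATGGCtgcc
Ndufc1: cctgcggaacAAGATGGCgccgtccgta
Ndufs4: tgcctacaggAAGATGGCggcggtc
Ndufs6: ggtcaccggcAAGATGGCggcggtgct
Atp5j2: ccaggacttcAAGATGGCgtcactcggt
Atp5sl: gttacctggcAAGATGGCggcgcccaga

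The chain held a larger share of the summed FPKM in reprogrammed cells than in fibroblasts. The 89 genes held 2.595% of the summed FPKM in labelled AID-null 3-week cells and 1.699% in labelled AID-null fibroblasts, and 2.52% in labelled wildtype 3-week cells against 1.67% in labelled wildtype fibroblasts. ATP synthase genes held 0.791% and 0.452% in labelled AID-null 3-week cells and fibroblasts, and 0.814% and 0.432% in the labelled wildtype pair. Complex IV genes held 0.714% and 0.440% in the labelled AID-null pair, and 0.657% and 0.454% in the labelled wildtype pair. For complex I the shares were 0.716% and 0.531%, and 0.680% and 0.513%, and for complex III 0.248% and 0.166%, and 0.238% and 0.163%. Complex II, whose subunits also serve the citric acid cycle, held 0.1003% and 0.0867%, and 0.1004% and 0.0842%. Every complex had the larger share in the 3-week library of its label, and complex II had the smallest relative gain in both. Part of each gain is a smaller total. The summed FPKM of all genes was 1708869 in labelled AID-null 3-week cells against 1955110 in fibroblasts. In the labelled wildtype pair it was 1791057 against 2012350. The complex II genes themselves summed to 1715 against 1694 FPKM in the labelled AID-null pair, and to 1799 against 1695 in the labelled wildtype pair. All 89 genes summed to 44349 against 33221 FPKM, and to 45146 against 33580.

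**Figure D1:**
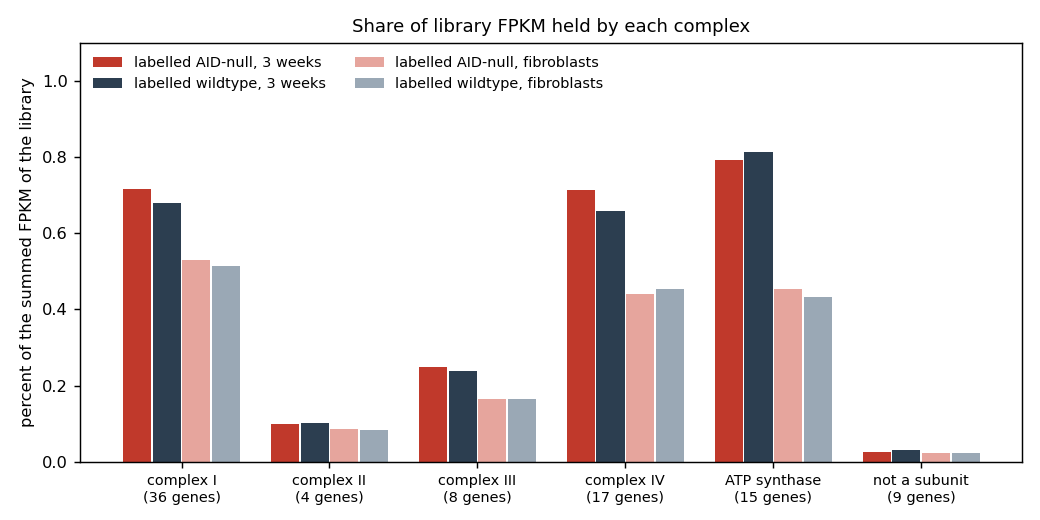
Percent of the summed FPKM of each RNA library held by each complex, 1 library per bar. ATP synthase bars stand at 0.791% and 0.814% in the 3-week libraries against 0.452% and 0.432% in fibroblasts, whereas complex II bars lie between 0.0842% and 0.1004%.

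Gene by gene, the changes were modest outside a few genes. Differences are of log2(FPKM + 1), a scale on which low genes appear to change less than they do, and a difference of 1 or more, taken here as 2-fold, counts a gene as higher or lower. In labelled AID-null cells 8 of 89 genes were at least 2-fold higher at 3 weeks than in fibroblasts, where 21.3% of all genes tested were, and 2 were at least 2-fold lower, where 17.6% of all genes were. The median change was 0.26 over the 89 genes and -0.05 over all genes. In labelled wildtype cells 88 genes reached 1 FPKM in at least 1 of the libraries compared, and 11 of them were at least 2-fold higher at 3 weeks than in fibroblasts, against 27% of all genes, and 1 was at least 2-fold lower, against 17.7%. The median change there was 0.39 over the 88 genes and 0.16 over all genes. The share of large changes lay below that of all genes in both labels, and the median lay 0.31 above that of all genes in labelled AID-null cells and 0.23 above it in labelled wildtype cells. A further background was the 4170 genes with a mean of at least 100 FPKM, a level closer to that of the chain. Of them 472 (11.3%) were at least 2-fold higher and 671 (16.1%) lower in labelled AID-null cells, with a median of -0.15. The chain genes stood at 8.99% and 2.25%, so their upward share was close to that of these genes. In labelled wildtype cells 757 (18.2%) were higher and 820 (19.7%) lower, with a median of 0.01, and the chain genes stood at 12.5% and 1.14%.

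The complexes differed in their median change. It was 0.15 in labelled AID-null cells and 0.28 in labelled wildtype cells for complex I, 0.03 and -0.03 for complex II, and 0.53 and 0.54 for complex III. For complex IV it was 0.56 and 0.70, and for ATP synthase 0.42 and 0.51. The complex IV medians include the 5 tissue-restricted isoforms described below, and the 12 general subunits of that complex had medians of 0.50 and 0.42. Of the 15 ATP synthase genes 12 were higher at 3 weeks than in fibroblasts in labelled AID-null cells and 15 in labelled wildtype cells. The 6 genes grouped here as catalytic head and stalk were Atp5a1, Atp5b, Atp5c1, Atp5d, Atp5e and Atp5o. They were above their fibroblast level in each label, the medians being 0.61 and 0.51. The stalk subunits Atp5f1, Atp5h and Atp5j were counted with the membrane part, whose 9 genes had medians of 0.26 and 0.51. Among those 9 genes 6 were above their fibroblast level in labelled AID-null cells and 9 in labelled wildtype cells. The 7 core subunits of complex I, which bind the flavin and most iron-sulphur clusters, had medians of 0.09 and 0.28, and its 29 accessory subunits 0.19 and 0.28.

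**Figure D2:**
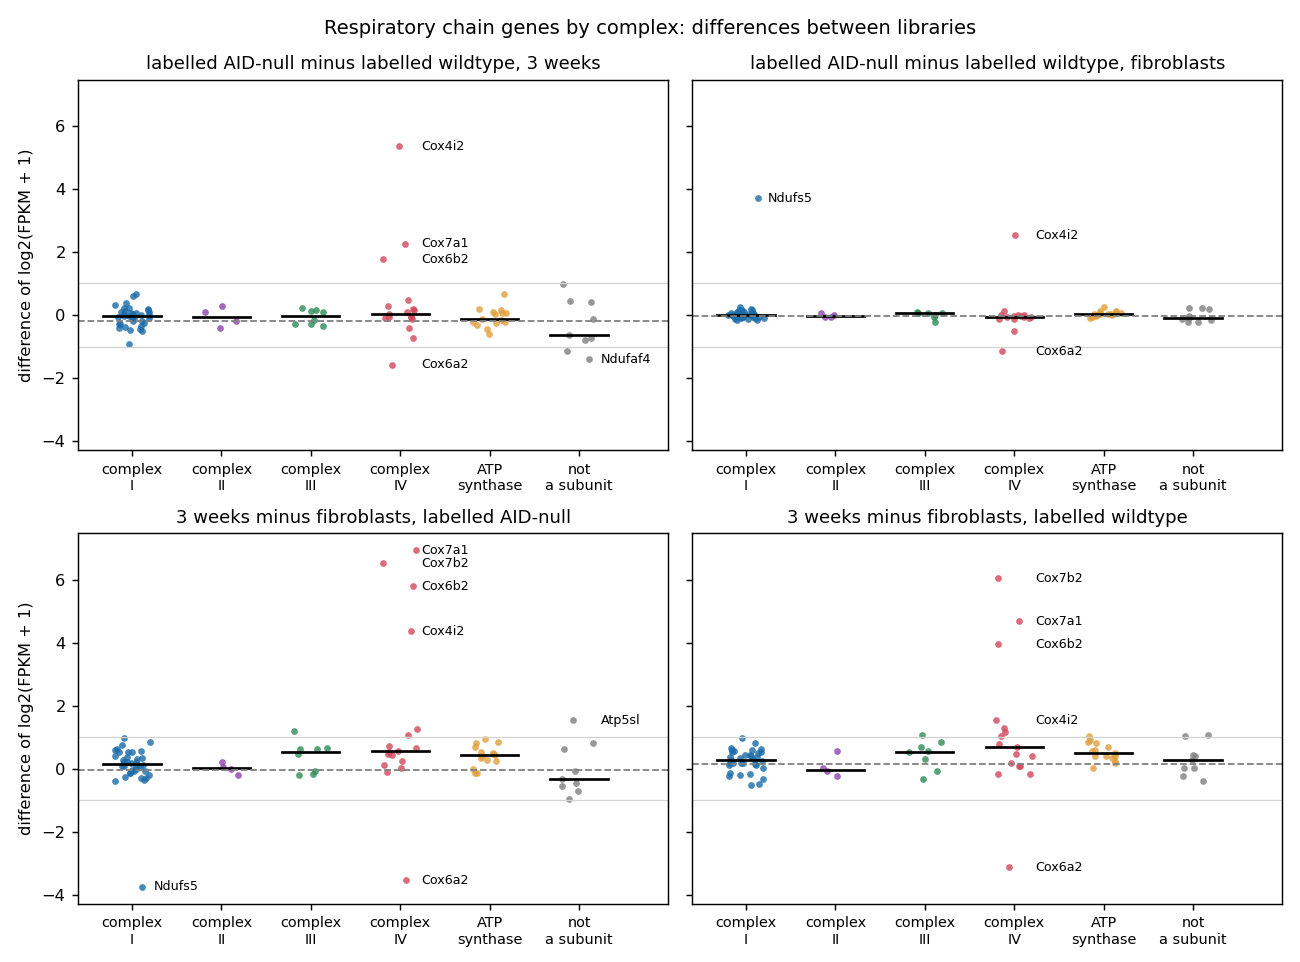
Difference of log2(FPKM + 1) for each gene that reached 1 FPKM in at least 1 library of the pair, by complex, in the 4 comparisons of single libraries. Thick bars are medians of a complex, the dashed line is the median of all genes and grey lines mark 2-fold. Most points lie between the grey lines, and the points far above them at 3 weeks are complex IV isoforms.

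Apart from the tissue-restricted isoforms described below, the genes at least 2-fold higher in both labels were Uqcrc1, Cox5a, Cox7c and Atp5sl. Uqcrc1, a core protein of complex III, was at 795 FPKM in labelled AID-null 3-week cells against 349.55 in labelled AID-null fibroblasts (log2 1.18), and at 706 in labelled wildtype 3-week cells against 335 in labelled wildtype fibroblasts (log2 1.07). Cox5a, a nuclear-encoded subunit of complex IV, was at 999.3 against 477 FPKM (log2 1.07) and at 1090.2 against 484 (log2 1.17). Cox7c, another small complex IV subunit, was at 409.97 against 169 FPKM (log2 1.27) and at 357 against 175 (log2 1.03). In each of these both 3-week libraries lay above both fibroblast libraries. Atp5b was at 4342 against 2279 FPKM (log2 0.93) and at 4779 against 2306 (log2 1.05), so it passed 2-fold in labelled wildtype and not in labelled AID-null cells. The same held for the X-linked Cox7b (log2 1.29 in labelled wildtype, 0.56 in labelled AID-null cells) and for Cox4nb (1.06 and -0.32). These differences between the labels were not tested. The electron donor to cytochrome c within complex III, Cyc1, which the symbols did not select, was at 822 against 379.65 FPKM (log2 1.11) and at 894 against 382 (log2 1.22).

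The changes in the 2 labels ran together in most genes, here as over all genes. Across the 89 genes they had a Pearson r of 0.879, and across the 84 genes without tissue-restricted isoforms 0.468, beside 0.819 across all 15624 genes. These correlations are across genes of single libraries, and genes are not independent replicates. Of the 89 genes 56 were higher at 3 weeks in both labels, 13 lower in both, 4 higher in labelled AID-null and lower in labelled wildtype, and 16 lower in labelled AID-null and higher in labelled wildtype. Over all 15624 genes the same counts were 6301, 5774, 1040 and 2020. With at least 2-fold in both labels, 8 of the 89 were higher and 1, Cox6a2, was lower, beside 2441 higher and 1640 lower of all 15624 genes.

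**Figure D3:**
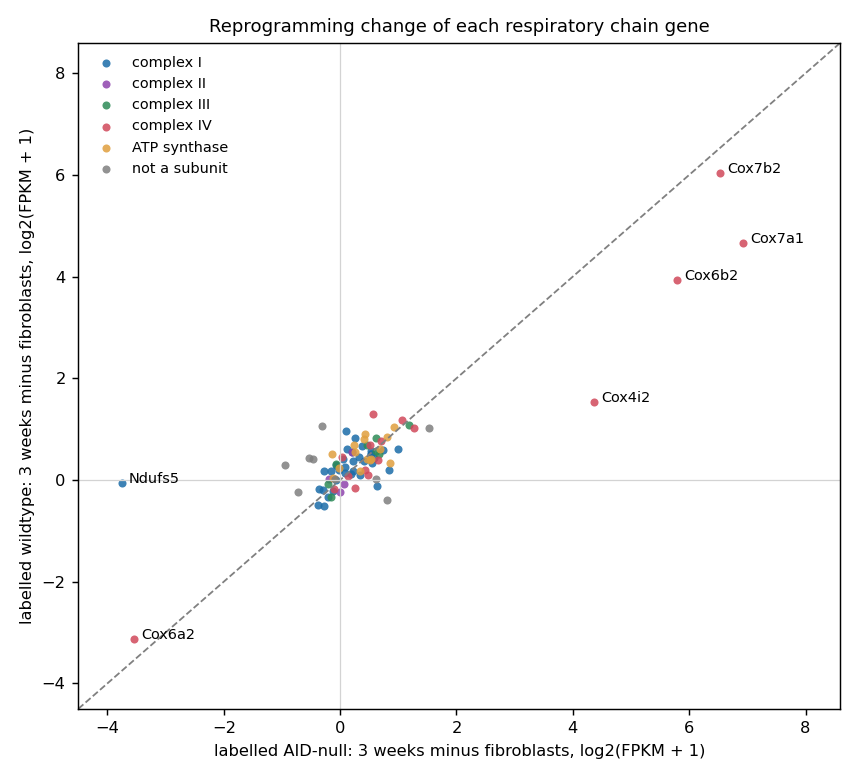
Change from fibroblasts to 3 weeks of each of the 89 genes on the log2(FPKM + 1) scale, labelled AID-null on the horizontal and labelled wildtype on the vertical axis. Most genes cluster near 0 on both axes, and Cox7b2, Cox7a1, Cox6b2 and Cox4i2 lie far out on the upper right with Cox6a2 on the lower left.

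Apart from the uncertain Ndufs5, the largest changes with reprogramming were in the 5 tissue-restricted subunits of complex IV. Cox6b2, the isoform of the cytochrome c docking subunit known from testis, was at 461 FPKM in labelled AID-null 3-week cells against 7.37 in labelled AID-null fibroblasts (log2 5.79), and at 135 in labelled wildtype 3-week cells against 7.83 in labelled wildtype fibroblasts (log2 3.94). It was the isoform with the highest level of the 5 in both 3-week libraries. Cox7a1, known from heart, skeletal muscle and brown fat, was at 121 FPKM in labelled AID-null 3-week cells and 24.5 in labelled wildtype 3-week cells and was listed at 0 in both fibroblast libraries. Cox7b2, another isoform known from testis, was at 91.1 and 64.9 FPKM in the 3-week libraries and likewise listed at 0 in both fibroblast libraries. Cox6a2, the heart and skeletal muscle isoform, ran the other way, listed at 0 in labelled AID-null 3-week cells and at 10.7 FPKM in labelled AID-null fibroblasts, and at 1.97 in labelled wildtype 3-week cells against 24.9 in labelled wildtype fibroblasts. Cox4i2, known from lung and for its response to low oxygen, was at 118 FPKM in labelled AID-null 3-week cells against 4.78 in labelled AID-null fibroblasts, and at 1.90 in labelled wildtype 3-week cells against a listed 0 in labelled wildtype fibroblasts.

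Most of their general partners differed far less between libraries. Cox6b1 was at 1097, 1081, 1004 and 1018 FPKM in labelled AID-null 3-week, labelled wildtype 3-week, labelled AID-null fibroblast and labelled wildtype fibroblast cells. Cox6a1 was at 1372, 1427, 1472 and 1619.8 FPKM and Cox7a2 at 759, 793.5, 465 and 466 FPKM. Cox7a2l, which helps join complexes III and IV into supercomplexes, was at 513, 545, 432 and 610.02 FPKM. In each gene of this group the 4 libraries lay within about 2-fold of each other.

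As a share of its isoform pair, Cox6b2 held 29.6% of the Cox6b1 and Cox6b2 FPKM in labelled AID-null 3-week cells, 11.1% in labelled wildtype 3-week cells, 0.729% in labelled AID-null fibroblasts and 0.764% in labelled wildtype fibroblasts. Cox7b2 held 18.1% and 8.68% of the Cox7b and Cox7b2 FPKM in the 3-week libraries, and 0% and 0% in fibroblasts. That share also moves with the X-linked Cox7b, at 412 against 683 FPKM in the 3-week libraries, where Cox7b2 was at 91.1 against 64.9 FPKM. Cox7a1 held 13.8% and 2.99% of the Cox7a1 and Cox7a2 FPKM at 3 weeks, and 0% and 0% in fibroblasts. Cox4i2 held 5.00% and 0.103% of the Cox4i1 and Cox4i2 FPKM at 3 weeks, and 0.296% and 0% in fibroblasts. The general isoform kept the larger share in every pair and library. Cyct, the testis form of cytochrome c and outside the symbols, showed the same order, with 46.9% and 21.4% of the Cycs and Cyct FPKM at 3 weeks and 0% and 0% in fibroblasts.

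**Figure D4:**
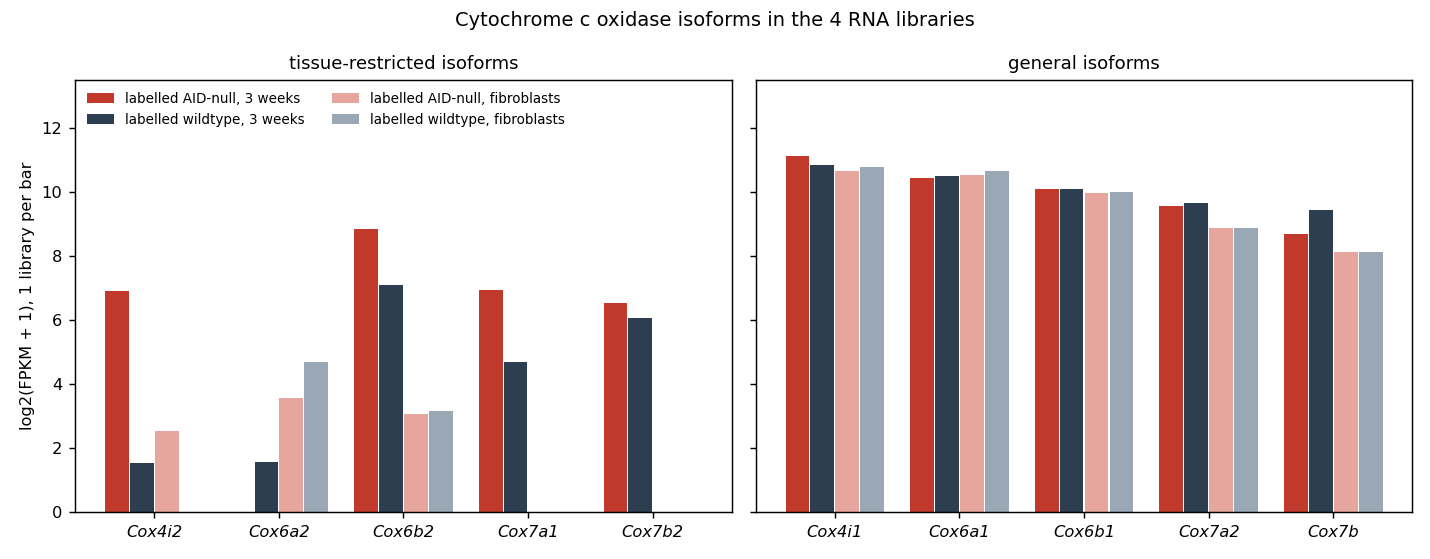
Level of the 5 tissue-restricted complex IV isoforms (left) and their general partners (right) on the log2(FPKM + 1) scale, 1 library per bar. Cox6b2, Cox7a1 and Cox7b2 are high in both 3-week libraries, Cox4i2 is high in the labelled AID-null 3-week library, Cox6a2 is highest in labelled wildtype fibroblasts and the general isoforms vary less between libraries.

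Markers of the tissues these isoforms are known from are given beside them. The 10 male germ cell markers summed to 183 FPKM in labelled AID-null 3-week cells, 91.8 in labelled wildtype 3-week cells, 23.2 in labelled AID-null fibroblasts and 8.88 in labelled wildtype fibroblasts. Pgk2, Acr, Prm1 and Tnp1 were listed at 0 in all 4. Dazl (64.1 and 14.4 FPKM), Mael (73.7 and 15.1), Ldhc (14.4 and 5.09) and Tex101 (2.38 and 1.76) were present at 3 weeks, labelled AID-null first. These were listed at 0 in both fibroblast libraries. Piwil2 was at 19.85, 47.6, 3.6 and 4.14 FPKM and Ddx4 at 8.78, 7.87, 19.6 and 4.74 in the order above. Of the 6 measured ones 3 passed 2-fold upward and 1 downward in labelled AID-null against labelled wildtype 3-week cells. The 12 skeletal muscle markers summed to 143, 209, 48.0 and 20.3 FPKM. The defining factors Myod1, Myf5 and Pax7 were listed at 0 in all 4 libraries, and Myog was at 0, 0.7, 2.09 and 0 FPKM. Mylpf was the highest at 3 weeks, at 95.4, 188, 10.6 and 2.28 FPKM in the order above. From fibroblasts to 3 weeks 2 of 8 measured muscle markers were at least 2-fold higher and 4 lower in labelled AID-null cells. In labelled wildtype cells 5 of 7 were higher and 2 lower. The shares of all genes were 21.3% and 17.6%, and 27% and 17.7%. Between the 3-week libraries 2 of 7 measured muscle markers were at least 2-fold higher and 1 lower in labelled AID-null cells. The 6 brown fat markers summed to 19.5, 30.1, 13.3 and 8.97 FPKM, with 1 of 4 measured ones at least 2-fold higher and 1 lower in the same comparison. Their part in the isoform values was not tested.

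The promoter windows of the isoform pairs differ in CpG content, and are shown with each CG in capitals, 5′ to 3′ on the gene's strand, because this separates the restricted from the general isoforms in 2 of the 3 pairs. The Cox6b2 window (chr7:4753045-4753344, minus strand of GRCm38.p6) holds 10 CpGs and that of Cox6b1 (chr7:30626065-30626364, minus) 17. None of the 5 motifs stood in the 3 restricted windows available, nor in those of the general partners Cox7a2 and Cox7b. The Cox6b1 window held the ETS letters, so the motifs did not separate the restricted from the general isoforms.
Cox6b2: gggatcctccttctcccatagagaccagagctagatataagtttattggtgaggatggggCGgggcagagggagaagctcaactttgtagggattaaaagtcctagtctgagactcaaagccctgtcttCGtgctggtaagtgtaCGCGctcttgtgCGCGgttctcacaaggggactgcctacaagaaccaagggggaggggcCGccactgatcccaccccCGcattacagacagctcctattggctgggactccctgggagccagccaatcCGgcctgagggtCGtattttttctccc
Cox6b1: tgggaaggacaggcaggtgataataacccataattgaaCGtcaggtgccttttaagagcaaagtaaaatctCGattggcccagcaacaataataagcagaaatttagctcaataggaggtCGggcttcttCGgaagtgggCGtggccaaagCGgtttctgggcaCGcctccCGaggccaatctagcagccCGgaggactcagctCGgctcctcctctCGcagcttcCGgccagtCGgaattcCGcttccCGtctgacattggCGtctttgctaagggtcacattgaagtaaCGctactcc

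For Cox7a1 the window (chr7:30183921-30184220, plus strand of GRCm38.p6) holds 7 CpGs and that of Cox7a2 (chr9:79759804-79760103, minus) 20.
Cox7a1: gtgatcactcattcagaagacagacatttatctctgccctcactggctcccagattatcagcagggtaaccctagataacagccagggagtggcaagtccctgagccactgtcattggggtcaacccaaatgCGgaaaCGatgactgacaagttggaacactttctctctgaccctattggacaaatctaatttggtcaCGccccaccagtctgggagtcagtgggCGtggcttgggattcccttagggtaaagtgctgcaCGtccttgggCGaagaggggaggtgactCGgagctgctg
Cox7a2: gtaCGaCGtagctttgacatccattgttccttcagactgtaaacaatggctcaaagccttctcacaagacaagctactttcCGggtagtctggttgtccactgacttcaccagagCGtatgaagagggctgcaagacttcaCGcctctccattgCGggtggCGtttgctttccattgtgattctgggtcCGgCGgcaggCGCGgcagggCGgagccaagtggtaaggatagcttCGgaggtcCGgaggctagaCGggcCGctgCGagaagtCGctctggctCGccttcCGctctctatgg

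The Cox7b2 window (chr5:71548156-71548455, minus strand of GRCm38.p6) holds 10 CpGs, more than that of the X-linked Cox7b (chrX:106015450-106015749, plus) with 5, which is the fewest of the 81 windows. Methylation at these promoters was not analysed here, since the RRBS positions are in the build mm9.
Cox7b2: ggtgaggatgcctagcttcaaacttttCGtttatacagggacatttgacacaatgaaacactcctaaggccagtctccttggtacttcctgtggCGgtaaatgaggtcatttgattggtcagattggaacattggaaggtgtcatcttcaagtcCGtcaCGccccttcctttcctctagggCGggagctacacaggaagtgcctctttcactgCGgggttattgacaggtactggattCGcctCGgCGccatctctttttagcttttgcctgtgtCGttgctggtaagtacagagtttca
Cox7b: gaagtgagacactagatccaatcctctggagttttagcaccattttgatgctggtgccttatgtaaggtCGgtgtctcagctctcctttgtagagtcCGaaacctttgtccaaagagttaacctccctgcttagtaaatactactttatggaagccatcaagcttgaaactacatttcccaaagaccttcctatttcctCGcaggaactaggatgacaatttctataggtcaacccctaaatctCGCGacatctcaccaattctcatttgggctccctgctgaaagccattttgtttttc

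Between the labels, fibroblasts differed little. Of 87 genes that reached 1 FPKM in a fibroblast library 2 were at least 2-fold higher in labelled AID-null fibroblasts, beside 4.26% of all genes, and 1 was at least 2-fold lower, beside 1.34%. The interquartile range of the 87 differences ran from -0.07 to 0.07. The 2 higher were Ndufs5, whose value is uncertain as said, and Cox4i2, at 4.78 against a listed 0 FPKM. The lower one was Cox6a2, at 10.7 FPKM in labelled AID-null against 24.9 in labelled wildtype fibroblasts (log2 -1.15). Of the general subunits Cox7a2l had the largest difference, at 432 against 610.02 FPKM (log2 -0.50).

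Between the 3-week libraries the differences spread wider. Of 88 genes 3 were at least 2-fold higher in labelled AID-null than in labelled wildtype 3-week cells, against 9.76% of all genes, and 3 were at least 2-fold lower, against 11.6%. Scaled by upper quartile, 12.1% of all genes were higher and 8.64% lower, and by median of ratios 12.5% and 7.88%. The median difference was -0.05 beside -0.18 over all genes, and other scalings turn its sign while leaving it 0.13 to 0.14 above that of all genes. The median by complex was -0.05 for complex I, -0.06 for complex II, -0.02 for complex III, 0.02 for complex IV and -0.14 for ATP synthase. The 3 higher genes were all restricted isoforms of complex IV: Cox4i2 at 118 against 1.90 FPKM (log2 5.36), Cox7a1 at 121 against 24.5 (log2 2.26) and Cox6b2 at 461 against 135 (log2 1.77). Cox7b2, at 91.1 against 64.9 FPKM, was 0.48 higher and did not reach 2-fold. The 3 lower genes were Cox6a2, at a listed 0 against 1.97 FPKM, and the non-subunits Ndufaf4 and Cox4nb. Without the 5 restricted isoforms 0 of 83 genes passed 2-fold upward and 2 downward. Ndufa4l2, a paralogue of the complex IV subunit Ndufa4 that the symbols leave out and that is known to respond to low oxygen, was at 979.9 against 27.8 FPKM, and in fibroblasts at 109 against 177.

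The reprogramming changes of the 2 labels were also set against each other. Of 89 genes 4 had a change at least 2-fold higher in labelled AID-null cells, beside 9.68% of all genes: Cox4i2 (2.83), Cox7a1 (2.26), Cox6b2 (1.85) and Atp5s (1.20). The Cox4i2 value rests on the pseudocount, since its labelled wildtype levels were 1.90 FPKM at 3 weeks and a listed 0 in fibroblasts. With a pseudocount of 0.1 Cox4i2 fell below 2-fold on this measure. A change at least 2-fold lower was seen in 3, beside 13.9% of all genes: Ndufs5 (-3.69), Cox4nb (-1.37) and Ndufaf4 (-1.24). This measure shares its 3-week libraries with the comparison above and is no separate evidence.

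X-linked members are set apart because the labels ran with sex. Ndufa1, an X-linked subunit of the membrane arm of complex I, was at 383 FPKM in labelled AID-null 3-week cells, 732 in labelled wildtype 3-week cells, 359 in labelled AID-null fibroblasts and 373 in labelled wildtype fibroblasts. Cox7b, an X-linked complex IV subunit, was at 412, 683, 279.7 and 279 FPKM. In both genes the labelled wildtype 3-week library was the highest of the 4. Ndufb11, the remaining X-linked member, was at 257, 277, 271 and 275 FPKM, with a smaller difference between the 3-week libraries (log2 -0.11) than Ndufa1 (-0.93) and Cox7b (-0.73). Over all 517 X-linked genes measured at 3 weeks the median difference of labelled AID-null minus labelled wildtype was -0.57, with 39 of them past 2-fold upward and 147 downward. In fibroblasts it was -0.02. The part of X-linked dosage in the values of Ndufa1 and Cox7b was not tested.

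The 9 genes that are not subunits had a median difference of -0.63 between labelled AID-null and labelled wildtype 3-week cells, and a median absolute difference of 0.72 beside 0.21 over all 88 measured genes. Over all genes in the libraries the median was -0.18 and the median absolute difference 0.51. For 23 assembly factors outside the symbols these were -0.44 and 0.56. Ndufaf4, an assembly factor of complex I, was at 17.3 FPKM in labelled AID-null 3-week cells, 47.6 in labelled wildtype 3-week cells, 34.4 in labelled AID-null fibroblasts and 38.8 in labelled wildtype fibroblasts, lowest in labelled AID-null 3-week cells. Ndufaf2, which acts late in complex I assembly, was at 60.4, 105, 88.1 and 77.4 FPKM, Sdhaf2, which helps attach flavin to Sdha, at 45.2, 74.9, 75.1 and 87.9 FPKM, and Sdhaf1, an iron-sulphur factor of complex II, at 46.1, 72.1, 63.9 and 54.1 FPKM. Ndufaf3, which works with Ndufaf4, went against this order at 67.8, 49.3, 44.0 and 48.4 FPKM, and Ndufaf1 was level at 61.6, 67.4, 65.3 and 66.6 FPKM. Cox4nb, which encodes a protein of the endoplasmic reticulum and not of complex IV, was at 37.6, 84.1, 47.0 and 39.9 FPKM. Atp5s was highest in labelled AID-null 3-week cells, at 39.3, 19.5, 22.0 and 25.8 FPKM. Atp5sl was higher in both 3-week libraries, at 65.6, 49.0, 22.0 and 23.5 FPKM.

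Lists of other mitochondrial genes were read in the same way. As background, the difference of labelled AID-null minus labelled wildtype 3-week cells had a median of -0.18 over the whole set of measured genes. In that set 9.76% passed 2-fold upward and 11.6% downward. The 15 electron carriers had a median difference between labelled AID-null and labelled wildtype 3-week cells of -0.12, with 1 gene at least 2-fold higher (Cyct, 32.1 against 14.0 FPKM) and 1 lower (Pdss1, 18.3 against 43.9 FPKM). The 23 assembly factors outside the symbols had -0.44, with 0 higher and 2 lower, Sco2 (24.1 against 65.7 FPKM) and Lrpprc (83.05 against 184 FPKM). The 23 genes of the citric acid cycle and pyruvate dehydrogenase had -0.15, with 2 higher and 0 lower. Those were the pyruvate dehydrogenase kinases Pdk2 (50.5 against 18.8 FPKM) and Pdk4 (30.05 against 12.0 FPKM). Of 17 measured regulators of mitochondrial gene expression 0 were higher and 3 lower, with a median of -0.23: Esrrb (174 against 414 FPKM), which is also among the pluripotency markers, the helicase gene Peo1 (38.0 against 80.8 FPKM) and Nrf1 (53.2 against 107 FPKM). Protein import had the lowest median, -0.65 over 20 genes, with 0 higher and 2 lower, Timm8a1 (49.55 against 264 FPKM) and the chaperonin gene Hspd1 (352 against 835 FPKM). Of 10 uncoupling and nucleotide exchange genes 1 was higher, Ucp1 (1.28 against a listed 0 FPKM), and 1 lower, the ATP/ADP carrier gene Slc25a5 (1143 against 2462 FPKM), with a median of -0.18. The medians of electron carriers, citric acid cycle genes, regulators and exchange genes thus lay close to the background median. Those of assembly factors and protein import lay below it.

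The same lists were read across reprogramming. The median change from fibroblasts to 3 weeks was 0.22 in labelled AID-null and 0.90 in labelled wildtype cells for protein import, with 2 and 9 of 20 genes at least 2-fold higher, beside 21.3% and 27% of all genes. For regulators it was 0.35 and 0.86, for electron carriers 0.23 and 0.58, for assembly factors 0.12 and 0.47, for citric acid cycle genes 0.26 and 0.38, and for uncoupling and exchange genes 0.41 and 0.69, beside -0.05 and 0.16 over all genes.

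The mitochondrial genome itself encodes 13 subunits, none of which was among the gene rows analysed here. RRBS reads on mitochondrial DNA gave another view, from 64 CpG positions covered in all 10 RRBS libraries, set against 1307867 shared autosomal positions. Library totals ran from 222945430 to 296572452 summed reads. The mean mitochondrial coverage over mean autosomal coverage was 49.8, 49.7 and 36.4 in labelled AID-null clones 1 to 3 (45.3 ± 7.69, SD, n = 3) and 34.9, 41.0 and 37.3 in labelled wildtype clones 1 to 3 (37.7 ± 3.06, SD, n = 3). The difference was 0.25 in log2, with an exact two-sided permutation p of 0.3, where 3 against 3 allows no p below 0.1. The clones overlapped, with labelled AID-null clone 3 inside the labelled wildtype range.

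By the median over positions the same clones separated. The median mitochondrial over median autosomal coverage was 1.27, 0.924 and 0.782 in labelled AID-null clones (0.992 ± 0.251, SD, n = 3) and 0.440, 0.573 and 0.620 in labelled wildtype clones (0.544 ± 0.093, SD, n = 3). The log2 difference was 0.85, with an exact two-sided permutation p of 0.1, the smallest possible. All 3 labelled AID-null clones lay above all 3 labelled wildtype clones, though the mean was the main measure and the median an alternative. Without the positions in the top 0.1% of coverage of a library the mean ratio was 1.235, 0.816 and 0.668 in labelled AID-null clones and 0.5525, 0.5185 and 0.600 in labelled wildtype clones. The groups did not overlap there, and the log2 difference was 0.66 with an exact two-sided permutation p of 0.1. In each library 10 of the 64 positions held 90.8% to 95.02% of the mitochondrial reads. The labels name no animal or culture of origin for a clone, and the p-values cover the spread between these clones only. In the bulk cultures the mean ratio was 32.1 in labelled AID-null 3-week cells and 30.1 in labelled wildtype 3-week cells, and 47.9 in labelled AID-null fibroblasts against 40.7 in labelled wildtype fibroblasts. By the median the 3-week ratios were 0.669 and 0.429, and the fibroblasts turned round, with 0.542 in labelled AID-null and 0.875 in labelled wildtype fibroblasts. Coverage depends on fragment recovery as well as on the amount of mitochondrial DNA, and the number of genomes per cell was not measured.

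**Figure D5:**
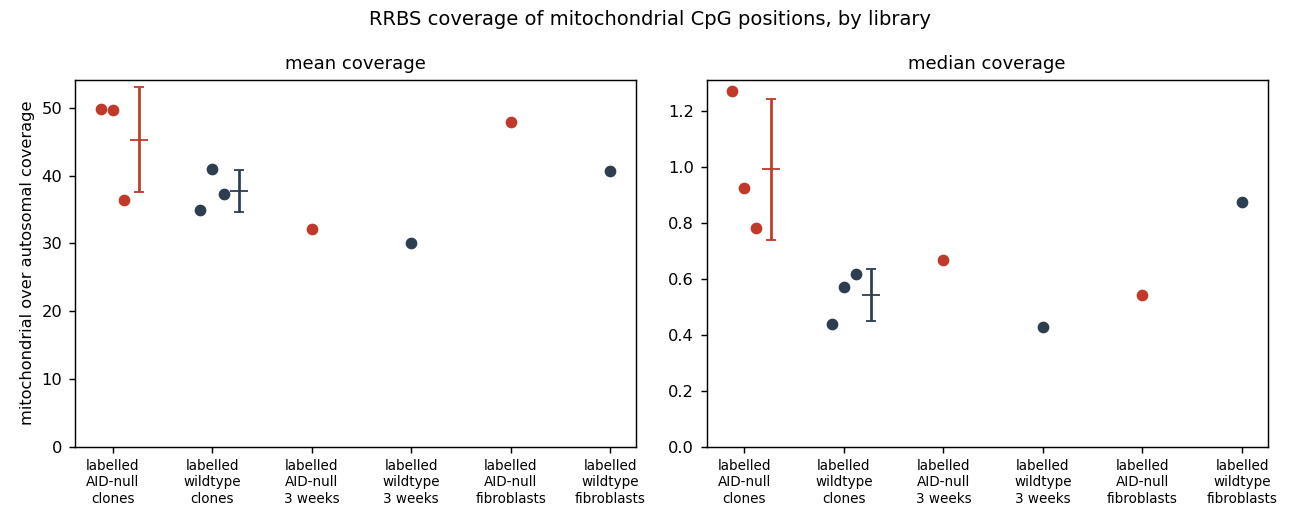
Mitochondrial over autosomal RRBS coverage per library by mean (left) and median (right), with the mean and SD of the 3 clones of each label. By the median the labelled AID-null clones, 0.782 to 1.27, lie above the labelled wildtype clones, 0.440 to 0.620, whereas by the mean they overlap.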

How the data were processed

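RNA was measured in 4 libraries and RRBS in 10, all from mouse tail fibroblasts or cells reprogrammed from them, with groups read from each sample's title. TopHat and Cufflinks (RNA), Bismark and methylKit (RRBS) and the mouse build mm9 were used per the submitters' processing notes; versions, filters and gene annotation are not given in the sources used here. Values in the deposited RNA files are FPKM of each gene, a unit the authors normalised. The deposited RRBS files give, per the file headers, a read count of coverage per CpG position and the percent methylated, with at least 10 reads at each listed position. RNA read depth is unknown.

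From FPKM the difference of log2(FPKM + 1) was taken for each gene that reached 1 FPKM in a library of the pair, and called at 2-fold. The share of summed FPKM, medians and counts were computed in Python 3.11.15 with pandas 2.3.3 and numpy 2.4.6. RRBS clones were compared by an exact permutation test in scipy 1.17.1. Promoter windows came from RefSeq (GRCm38.p6), which differs from mm9, so promoter methylation was not analysed here. Names were matched to that table for 85 genes by symbol and 4 by an older symbol.

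Named genes were those past 2-fold in any comparison, the 2 highest of each complex, isoforms with a restricted partner, X-linked members, members at 0 in a library and non-subunits. Of each other list at most 3 genes were named for their difference. Cyc1, Cycs, Myog, Mylpf and the measured male germ cell markers were named after their values were seen. Markers listed at 0 are named besides. The members and lists were chosen with earlier results of these data known. A further check of the labels is not reported here. The scripts were tested on simulated data. Alternatives covered the pseudocount, filter, scaling, fold and member sets.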

Additional observations from a re-analysis of the deposited data

How the results depend on the processing

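Scaling moved medians, not the largest genes. With upper-quartile scaling the median was 0.12 between the 3-week libraries, 0.063 between fibroblasts and 0.46 for the labelled AID-null change, for which 13 genes were then at least 2-fold higher, beside 24.7% of all genes. With median-of-ratios scaling it was 0.16 between the 3-week libraries, 0.027 between fibroblasts and 0.12 for the difference of the changes. Relative to the median of all genes the 3-week difference stayed at 0.13 to 0.14, the labelled wildtype change at 0.22 to 0.23 and the labelled AID-null change at 0.31 to 0.32. At 1.5-fold 7 genes were higher and 9 lower between the 3-week libraries, beside 17.3% and 27.2% of all genes. Likewise 26 were higher in the labelled wildtype change, beside 36.6%, 24 higher and 4 lower in the labelled AID-null change, beside 29.9% and 29.8%, and 8 lower in the difference of the changes, beside 28.8%. Without the non-subunits 1 gene was lower between the 3-week libraries and 1 in the difference of the changes. Between fibroblasts a pseudocount of 5 left 1 higher and 0 lower, and a minimum of 10 FPKM left 1 higher. Of 264 alternatives for single named genes 11 lost the 2-fold call, and 12, all under another scaling, changed the sign of a 3-week difference of at most 0.14 in size (Atp5b, Cox6a1, Cox7a2, Cox7a2l, Ndufaf1 and Ndufb11). No value past 2-fold changed sign. The 11 lost calls concern Cox4nb, Cox4i2, Cox6a2, Atp5sl and Cox7c.

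By the median in place of the mean, bulk mitochondrial coverage was 0.669 in labelled AID-null 3-week cells, 0.429 in labelled wildtype 3-week cells, 0.542 in labelled AID-null fibroblasts and 0.875 in labelled wildtype fibroblasts, which turns the order of the labels in fibroblasts. Leaving out each clone in turn gave a log2 difference of 0.18 to 0.40 in mean coverage, the highest without labelled AID-null clone 3. With the clone number as a replicate block it was 0.25 with an exact p of 0.5, but same-numbered clones did not deviate together (r of -0.033, -0.365 and 0.086), so the numbers do not pair them. No paired analysis was possible because each RNA group had 1 library. RNA depth is unknown, and differences of single libraries cannot be set against any replicate spread.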
